A study of Zea mays with 168 samples.

Results

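The transcripts described here are the 200 array spots in which the maize inbred line 005x005 stood farthest from 3 other inbred lines in the deposited values. They were taken from 10829 spots whose identifier occurs on 1 row only, after the 200 brightest such spots had been left out of 11029. For each spot the mean of each line, as log2 level minus the median of its channel, was set against the mean of the other 3 lines, and 1816 spots had their largest deviation in 005x005. The transcripts were selected on these deviations, as the 200 of largest size. The deviations are therefore given as a description, with no test.

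Transcript levels were measured on cDNA arrays read in Cy3 and Cy5, in whole primary roots of Zea mays taken 3.5 days after germination. The genotypes were 4 inbred lines (002x002, 005x005, 250x250 and 301x301) and the 12 reciprocal hybrids between them, each named by both parents, and no group carried a transgene or a treatment. About 20 roots were pooled for each sample, polyadenylated RNA was purified, and per the series text each sample was an independent biological replicate. After 8 slides named in the selection rule had been dropped, 76 slides with 2 channels each remained. They comprised 16 channels of 002x002, 14 of 005x005, 16 of 250x250, 19 of 301x301, 38 of the 6 hybrids with 005 (5 to 7 each) and 49 of the 6 hybrids without it (8 or 9 each). The roots were pooled whole, and in bulk samples fewer cells of a type and less RNA per cell cannot be told apart.

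Inbred lines of maize carry different alleles of many genes and accumulate different amounts of the corresponding transcripts. An F1 hybrid receives an allele of each parent, and when the alleles act additively its transcript level is known to lie between those of its parents. The primary root is the first organ to emerge from the maize seed, and hybrids are known for more vigorous seedling growth than their parents. On a cDNA array each spot holds DNA made from an expressed sequence tag and is named by that tag's accession. A print block is a field of spots that lie together on the slide.

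Of the 200 transcripts, 197 were higher and 3 were lower in 005x005 than in the mean of the other lines. The size of the deviation ran from 2.54 to 1.01 on the log2 scale, with a median of 1.15. The last transcripts inside the limit, AW017511 and AW042171, both deviated by 1.01, as did the first outside it, AI783096 and AI666230. Of the 8 identifiers on the whole array that matched a maize gene symbol, 1 was among the 200. It was AW257883, listed as a synonym of the protein-coding gene LOC100279628 in assembly Zm-B73-REFERENCE-NAM-5.0, for which that table gives no product. The others keep their accession only. Over 402 identifiers printed on several spots, the levels of such spots had a rank correlation of 0.245. For the 11 identifiers printed on 12 spots, the median SD of the level over those spots was 0.367, against an SD of 1.16 over all spots.

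The name of a set of transcripts that sets line 005 apart goes against the data for most of the 200, because the deposited values list exact zeros in the other lines. In 189 of the 200 (94.5%) at least 1 inbred channel was listed at exactly 0, against 14.4% of all spots kept. For 1 of the 189, AI855162, the listed zero was in 005x005 itself. Of 7843 zeros in the value table, 7711 (98.3%) lay on 5 slides, numbered 292, 297, 561, 998 and 999, and 95.8% of those lay in 4 print blocks along 1 side of the array. Each of these 5 slides paired 002x002, 250x250 or 301x301 with one of its hybrids that lack 005. None of them carried 005x005 or a hybrid with 005. The inbred channels held 1 zero for 20 transcripts, 2 for 12, 4 for 40 and 5 for the others. With 5 zeros the median deviation was 1.14 as deposited and 0.21 with the zeros left out, and with 1 zero it was 1.18 and 0.99.

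The zeros and the 200 transcripts lay in the same place. The 4 edge print blocks held 188 of the 200 (94%), with 11, 34, 62 and 81 transcripts in blocks 1, 9, 17 and 25, and 12.9% of all spots kept. The first 6 spot columns held 78.5% of the transcripts, against 4.25% of all spots kept. The other 12 transcripts were spread over 8 other print blocks. A listed zero lies far below the median of its channel, and the lowest value of AW000273 in 002x002, a listed zero, was -10.1 after that median had been subtracted.

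**Figure D1:**
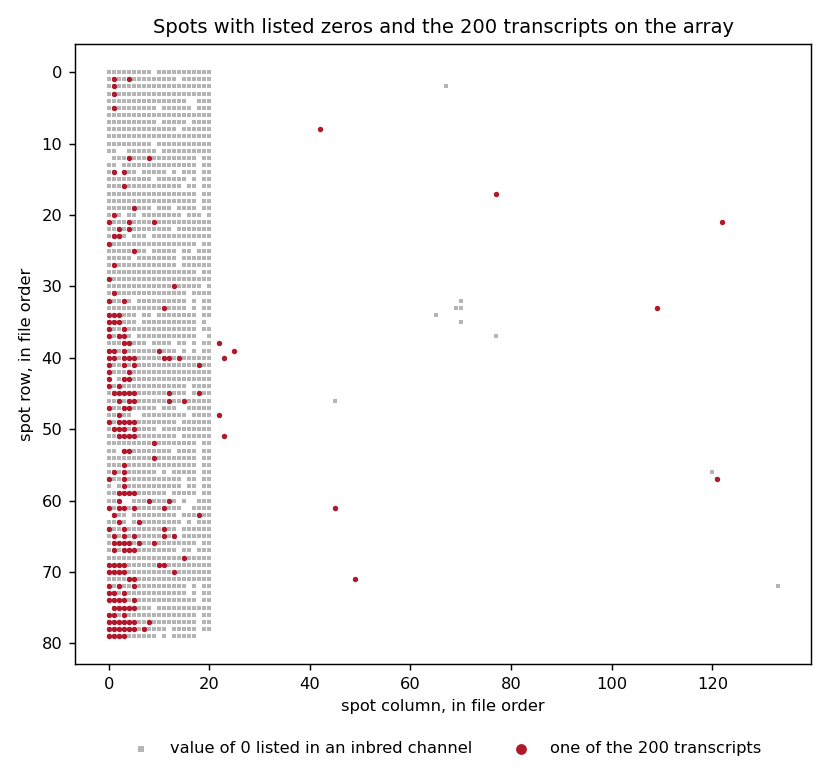
Position of spots on the array, as spot column (horizontal) and spot row (vertical) in the order of the identifiers. Grey squares are spots listed at 0 in at least 1 inbred channel, and red points are the 200 transcripts, of which 188 lie in the 4 print blocks at the left.

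The levels in these print blocks were also compared with the usual spot profile. For each channel, the levels of the spots in a print block that are not among the 200 were compared by rank with their medians over all channels. In the edge print blocks 17.6% of 608 block values lay under a rank correlation of 0.2, and in the other print blocks 0.775% of 4256 did. All 4 edge print blocks lay under 0.2 in 18 channels of 11 slides, which were 4 channels of 002x002, 1 of 250x250, 3 of 301x301 and 10 of hybrids without 005. No channel of 005x005 or of a hybrid with 005 was among these 18. Without the 5 slides that hold most zeros, 14 such channels on 8 slides remained, and 14.3% of the edge block values and 0.654% of the others lay under 0.2. These were 3 channels of 002x002, 2 of 301x301 and 9 of hybrids without 005. Over all 76 slides, at least 1 edge print block lay under 0.2 in 1 of 14 channels of 005x005 and 2 of 38 of hybrids with 005. It did so in 5 of 16 channels of 002x002, 4 of 16 of 250x250, 6 of 19 of 301x301 and 17 of 49 of hybrids without 005. The mean correlation of the edge print blocks had its lowest value at 0.40 in 005x005, -0.043 in 002x002, 0.11 in 250x250 and -0.022 in 301x301. In hybrids the lowest value was 0.21 with 005 and -0.017 without it. For these print blocks on those slides, genotype and slide cannot be told apart.

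**Figure D2:**
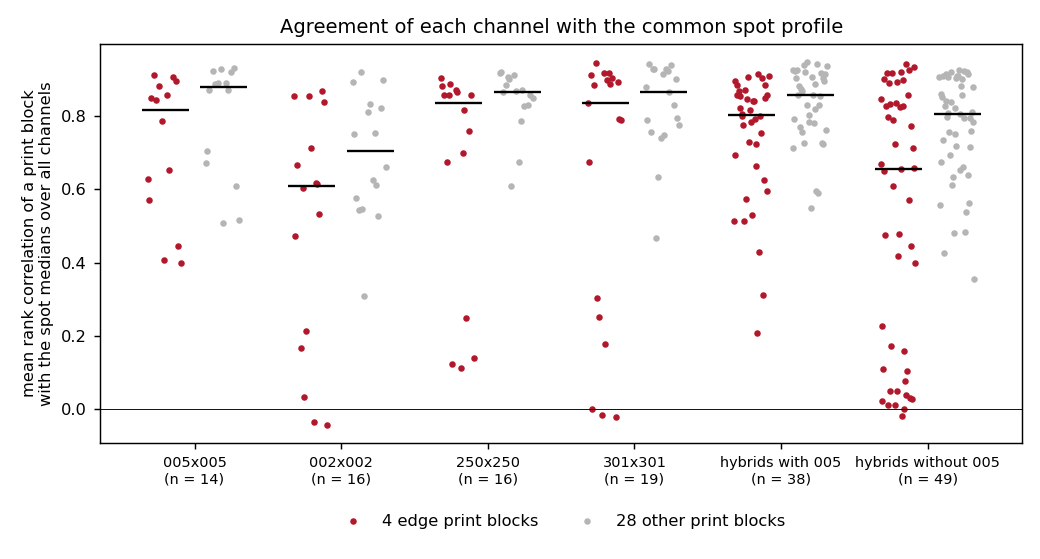
Mean rank correlation (vertical axis) of the print blocks of each channel with the spot medians over all channels, for the 4 edge print blocks (red) and the 28 other print blocks (grey); the 200 transcripts were left out, and black lines are medians. Channels under 0.2 in the edge print blocks occur in the 3 other lines and in hybrids without 005, and the lowest 005x005 channel is at 0.40.

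With listed zeros treated as missing, the median deviation of the 200 fell from 1.15 to 0.36. The direction held in 199 of 200, but the deviation was at least 1 in 26, and 005x005 was the line with the largest deviation in 91. With print blocks under a rank correlation of 0.2 also treated as missing, the median was 0.24, the direction held in 170, 11 were at least 1 and 29 had their largest deviation in 005x005. Selecting again by the same rule, 56 of the 200 (28%) were chosen after the first step and 19 (9.5%) after the second. The set chosen after the second step held 88 lower spots, the others being higher, with deviations of 1.56 to 0.51, and 15% of it lay in the edge print blocks. These treatments were chosen after the zeros had been seen.

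No slide carried 005x005 beside another line or a hybrid without 005, since all 14 slides with 005x005 paired it with a hybrid of 005. The deviation could therefore also be estimated from differences between both channels of each slide, by a linear model of genotype and dye over 76 slides that links the lines through their hybrids. On this scale the median of the 200 was 0.13, with a range of -1.71 to 1.25. The median over all 10829 spots was 0.035, and the median absolute value 0.126. The median SE of the 200 was 0.20, and 2 transcripts reached 1.

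**Figure D3:**
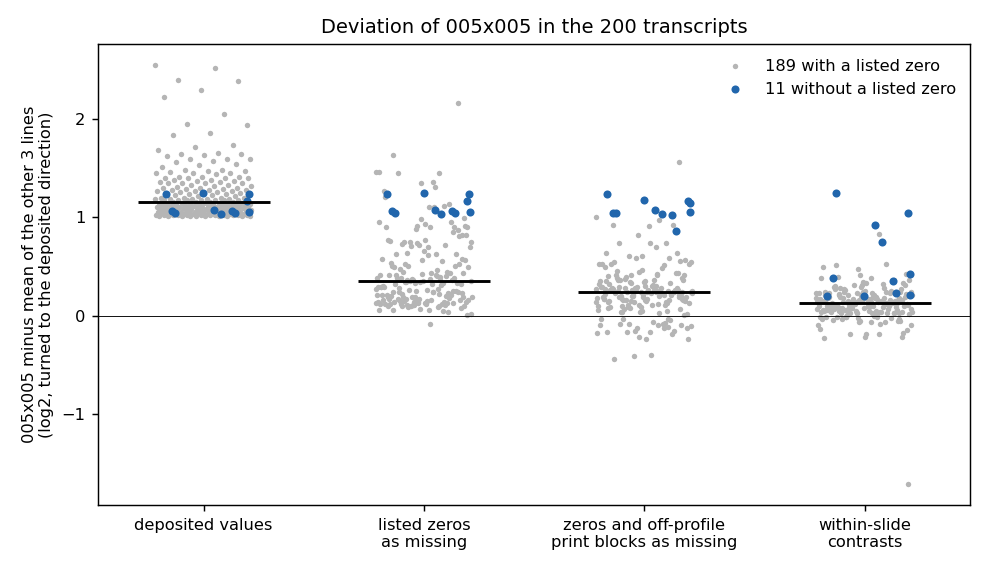
Deviation of 005x005 from the mean of the other 3 lines in the 200 transcripts (vertical axis, log2, counted as positive in the deposited direction) for 4 treatments of the data. Each point is a transcript, blue points are the 11 with no listed zero, and black lines are the medians of all 200 (1.15, 0.36, 0.24 and 0.13).

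The transcripts with the largest deposited deviations were AW000273 (2.54), AW356003 (2.51), AW331218 (2.39), AW257883 (2.38) and AW787823 (2.29), all higher in 005x005. AW000273 had a level of 2.48 ± 1.26 (SD, n = 14) in 005x005 and of -0.58 ± 3.88 (n = 16) in 002x002, where 2 channels were listed at 0. Without the zeros its level in 002x002 was 0.77 ± 1.31 (n = 14), and its deviation fell from 2.54 to 1.46. It was 1.00 with off-profile print blocks missing and 0.23 ± 0.25 (SE) within slides. AW356003, AW331218 and AW787823 had within-slide deviations of 0.04 ± 0.23, 0.21 ± 0.22 and 0.31 ± 0.24, each within 2 SE of 0. None of these spots has a gene name here.

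AW257883 had the largest deviation of the 200 when zeros were treated as missing (2.16) and also with off-profile print blocks missing (1.56). Its level in 005x005 had a lowest, median and highest value of 0.60, 4.05 and 6.47 (n = 14). The corresponding values were -0.87, 1.13 and 6.46 in 002x002, -2.73, 1.43 and 4.62 in 250x250, and -1.72, 2.45 and 7.03 in 301x301 with 1 zero left out. The ranges of the lines overlapped. By median, the hybrids 005x301 (5.90) and 301x005 (5.83) were highest, followed by 301x250 (2.41), 002x005 (2.33), 250x005 (2.25), 005x250 (2.02) and 005x002 (1.92). The hybrids without 005 at the lower end were 250x002 (0.02) and 002x250 (0.57), and 250x301 (1.80), 301x002 (1.57) and 002x301 (1.52) lay between, with ranges that overlapped those of their neighbours.

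The level of AW257883 differed between slides and slide ranges. Slides were numbered in 4 ranges that start at 0, 273, 471 and 916, and on slides of the range from 273 the median was 5.75 in 005x005 (n = 4), 6.36 in 301x301 (n = 6) and 5.92 in hybrids with 005 (n = 12). On the same range it was 0.38 in 250x250 (n = 3) and -0.53 in hybrids without 005 (n = 6). These hybrids without 005 were all of the cross of 002 with 250, and those with 005 all of the cross with 301. Slide and genotype cannot be told apart there. In the range from 0, which holds 8 of the 14 005x005 channels, the medians were 3.92 in 005x005, 3.71 in 002x002 (n = 2), 2.31 in 301x301 and 1.42 in 250x250, and the deviation was 1.34. In the range from 916 the medians lay closer, at 2.56 in 005x005 (n = 2), 2.13 in 002x002, 2.09 in 250x250 and 1.24 in 301x301. On the 14 slides with 005x005 its channel and the hybrid beside it differed by a median of 0.47, against an SD of 2.21 over the 005x005 channels. Within slides the deviation of 005x005 was 0.18 ± 0.24 (SE).

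The 3 transcripts lower in 005x005 were AI737443 (-1.16), AW400064 (-1.05) and AI855162 (-1.04). AI855162 had a listed zero in 1 channel of 005x005, and without it the deviation was -0.30 and largest in 250x250. AI737443 and AW400064 had no listed zero and lay outside the edge print blocks, in blocks 27 and 3. The level of AI737443 in 005x005 had a lowest, median and highest value of -1.06, 0.33 and 2.50. In 002x002 these were -0.26, 2.24 and 4.24, and in 250x250 -0.36, 1.80 and 5.00. Its level in 301x301 ran from 0.05 to 3.09. Most 005x005 channels were thus below the medians of the other lines, but the ranges overlapped.

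AW400064 had a median of 1.82 in 005x005, from 0.09 to 3.40, and of 3.47 in 002x002, 2.84 in 250x250 and 2.02 in 301x301. Both kept their deviation within slides, at -1.04 ± 0.44 (SE) for AI737443 and -1.25 ± 0.52 for AW400064. These were the 2 of the 200 that reached 1 on that scale in the deposited direction. On 11 of the 14 slides with 005x005, each was lower in 005x005 than in the hybrid beside it. AW400064 did not deviate in the range of slides from 916, where its value was 0.03. The deviation of AI737443 was smaller within the ranges from 0, 273 and 916 than over all channels. In the range from 0, its levels in 002x002 (1.23 and -0.26) lay among those of 005x005 (-0.48 to 2.50). The lines were spread unevenly, with 8, 4 and 2 channels of 005x005 in these ranges. The range from 471 held 8 channels of 002x002 and no channel of 005x005.

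Besides AI737443 and AW400064, 9 transcripts had no listed zero in an inbred channel, all higher in 005x005. They were AI920506 (1.24), AW256102 (1.24), AW331485 (1.23), BG842301 (1.08), AI770397 (1.06), AW455651 (1.06), AI668237 (1.05), AW330670 (1.04) and AW017751 (1.04), named here after their values had been seen. The deviation of AI770397 was 0.15 with medians over channels in place of means. Its median in 005x005 was -0.32 and its highest channel 7.09 (SD 2.40, n = 14). Of the 9, AI920506, AW331485 and AW455651 lay in print block 18 and AI770397 and AW330670 in print block 10, next to the edge print blocks. Within slides the 11 transcripts without a zero kept their direction, with a median of 0.38. The largest values among those higher in 005x005 were 0.92 ± 0.34 (SE) for BG842301 and 0.75 ± 0.25 for AW017751. AI920506, AW331485 and AW256102 had 0.20 ± 0.32, 0.22 ± 0.22 and 0.20 ± 0.21.

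Whether hybrids that received 005 alleles differ from those that did not was asked on slides that carry 2 reciprocal hybrids and no inbred line, because no level on these slides entered the deviations that chose the transcripts. There were 5 such slides with 005 (slides 44 and 46 with 005x250, 301 with 005x301, and 471 and 919 with 002x005, each beside its reciprocal) and 6 without (37 and 61 with 250x301, 295 and 560 with 002x250, 995 and 996 with 002x301). With limma on slide means and the slide range as a block, 0 of 10829 spots passed an adjusted p of 0.05, and the lowest adjusted p was 0.948. At an unadjusted p under 0.05 there were 441 spots (4.07%). Of the 200 transcripts, 54 were below that unadjusted p and all 54 were higher with 005, against 2.87% of all spots higher and 1.2% lower. In simulated data the same comparison called 0 of 200 spots given a log2 change of 1, and 192 of 200 given a change of 2.

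The median difference of the 200 between hybrids with and without 005, in the direction of 005x005, was 0.61, and 194 of 200 had that direction. Over all spots the median was 0.02, with 51.7% above 0. The other 1205 spots of the edge print blocks had a median of 0.43, with 92.8% above 0, and spots of the other print blocks had a median of -0.04. With each print block of a channel centred on its own median, the 200 had a median of 0.15 and 74% had the direction of 005x005. With zeros and off-profile print blocks missing, the median was 0.27 in the 200 and 0.20 in the other edge spots, and 0 spots were called by limma. On slides 295 and 560, both without 005, the edge print blocks had rank correlations with the common profile of 0.05 and 0.03, and 0.11 and 0.08, in their 2 channels.

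By slide, the median level of the 197 transcripts higher in 005x005 was 0.64, 0.48, 0.18, 0.57 and -0.53 on slides 44, 46, 301, 471 and 919 with 005. It was -0.43, -0.32, -1.08, -0.44, 0.45 and 0.88 on slides 37, 61, 295, 560, 995 and 996 without 005. The groups overlapped, with means of 0.27 ± 0.48 (SD, n = 5) and -0.16 ± 0.70 (n = 6). No transcript had all 5 slides with 005 above all 6 without, which held for 0.0185% of all spots, and none had all 5 below, which held for 0.157%. Within slide ranges, the slide medians of all 200, turned to the direction of 005x005, differed by 0.98, 1.25 and 0.98 in the ranges from 0, 273 and 471 and -1.16 in the range from 916. The other spots of the edge print blocks differed by 0.68, 0.99, 0.53 and -0.50 in the same ranges. Leaving out slide 919 raised the median difference of the 200 to 1.07.

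**Figure D4:**
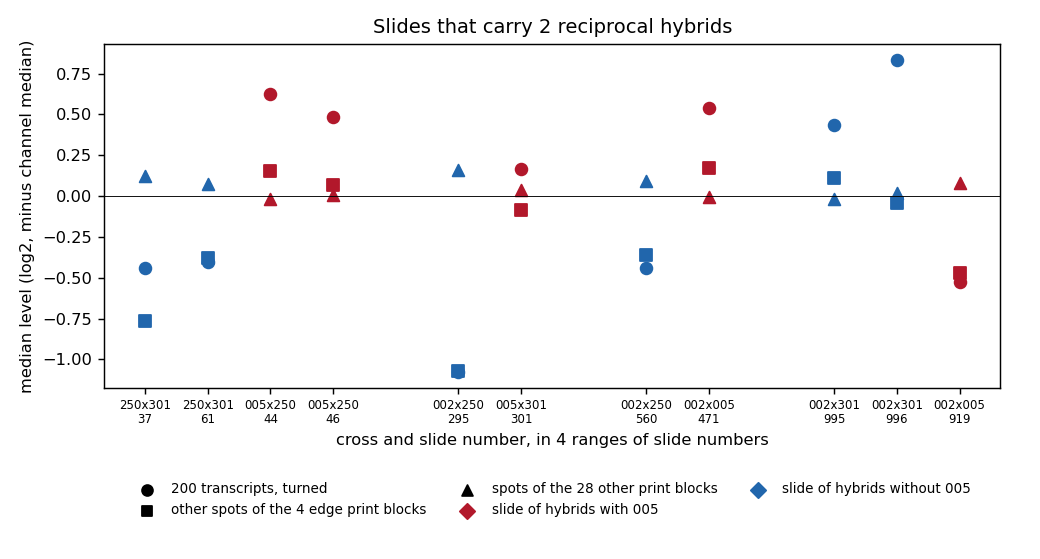
Median level (vertical axis, log2 minus the channel median) on the 11 slides that carry 2 reciprocal hybrids, ordered by slide range, for the 200 transcripts in the direction of 005x005 (circles), the other spots of the edge print blocks (squares) and spots of the 28 other print blocks (triangles). Circles and squares both lie lowest on slide 295, and the circle of the slide with 005 in the last range (919) lies below those of both slides without 005 there.

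The largest differences among higher transcripts were those of AW787311 (2.95 ± 0.71, SE), AW356003 (2.33 ± 0.58), AW787338 (2.32 ± 0.74), AW355987 (2.23 ± 0.85) and AI619370 (2.20 ± 0.74), each with a limma adjusted p of 0.948. All of them lie in the edge print blocks 17 and 25. AW787311 had levels of 5.68, 6.57, 5.87, 4.00 and 4.37 on slides 44, 46, 301, 471 and 919 with 005. On slides 37, 61, 295, 560, 995 and 996 without 005 it had 3.24, 4.69, -1.16, 0.72, 2.72 and 4.38. The groups overlapped, and slides 295 and 560 were lowest. AW787311 also went against its deposited direction within slides, at -1.71 ± 0.51 (SE), and with off-profile print blocks missing, at -0.12. AW355987 and AI619370 had within-slide deviations of 0.07 ± 0.20 and -0.02 ± 0.26.

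AW257883 had levels of 4.28, 1.96, 4.64, 1.54 and 2.37 on slides 44, 46, 301, 471 and 919 with 005. Without 005 it had 1.16, 2.89, -1.17, -0.11, 2.89 and 2.30 on slides 37, 61, 295, 560, 995 and 996. The groups overlapped, and the difference was 1.75 ± 0.73 (SE, limma, unadjusted p = 0.0321, adjusted p = 0.948). With zeros and off-profile print blocks missing it was 0.57 ± 0.62.

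AI737443 had -0.06, 0.30, 1.56, 1.82 and 2.18 on the slides with 005 in the same order, and 2.25, 3.34, 0.45, 2.50, 1.58 and 2.65 on those without. Only slides 44 and 46 lay below every slide without 005. The difference of -0.91 ± 0.52 (SE) did not pass the test (limma, adjusted p = 0.948), and its 95% interval ran from -2.03 to 0.22. AW400064 differed by -0.34 ± 0.40 and AI855162 by -0.39 ± 0.32. All 3 differences had the sign of 005x005, and none was separable from 0 here.

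The 11 transcripts without a listed zero had a median difference of 0.91 in the direction of 005x005, all 11 with that sign, and 0.90 with print-block centring. With zeros and off-profile print blocks missing it was 0.76 and 10 of 11 had that sign, AI770397 being at -0.046. The differences of BG842301 (1.32 ± 0.33, SE), AW455651 (1.47 ± 0.46), AI920506 (1.95 ± 0.58), AI668237 (0.76 ± 0.32) and AW017751 (0.64 ± 0.28), and that of AW331485, had unadjusted p under 0.05, against 4.07% of all spots, and limma adjusted p of 0.948. BG842301 had levels of 3.47, 2.34, 3.20, 2.45 and 2.69 on the slides with 005 and 0.93, 0.85, 2.63, 1.65, 1.68 and 1.27 on those without. Its slides with 005 lay above those without except slide 295, which lay above slides 46 and 471. AI770397 had a difference of 0.07 ± 0.28 (SE, limma, adjusted p = 0.984), with a 95% interval from -0.54 to 0.67.

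**Figure D5:**
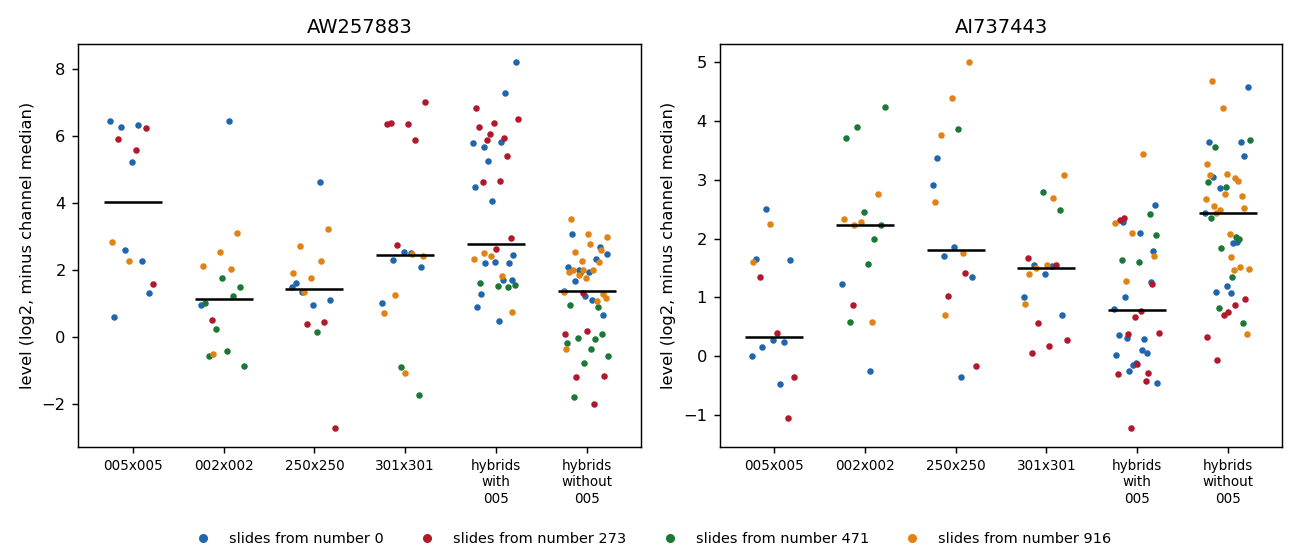
Level of AW257883 (left) and AI737443 (right) in each channel (vertical axis, log2 minus the channel median, listed zeros left out) by line and kind of hybrid, coloured by slide range; black lines are medians. The median of 005x005 is 4.05 for AW257883 and 0.33 for AI737443, and single channels of the other lines overlap those of 005x005 in both.

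Over all 87 hybrid channels, including those beside an inbred line, limma with the slide as a random block (correlation 0.88 between channels of a slide) called 263 spots (2.43%) and 46 of the 200. Without the slides that carry 005x005 it called 236 (2.18%) and 23 of the 200, and with a term for slide range 63 (0.582%) and 36, all higher. With listed zeros missing it called 409 (3.78%) and 60 of the 200. With zeros and off-profile print blocks missing, 267 spots (2.47%) were called, and 33 of the 200 (16.5%), of which 32 were higher and 1 lower with 005. With slide range as a further term in that fit, 24 spots (0.222%) were called, and 10 of the 200, all higher. AW257883 was higher with 005 by 1.99 ± 0.39 (SE, adjusted p = 0.00163) without the range term and by 1.94 ± 0.42 (adjusted p = 0.0193) with it. In the range from 273, hybrids with 005 were all of the same cross and those without it all of another. The range term cannot separate 005 from cross there. Leaving out listed zeros only, the AW257883 medians with and without 005 were 5.92 and -0.53 in that range. They were 2.45 and 1.97 in the range from 0, 1.54 and -0.05 in that from 471, and 2.33 and 1.99 in that from 916. In the same fits AW455651 was higher by 1.21 ± 0.21 (adjusted p = 0.00054) and, with the range term, by 1.09 ± 0.24 (adjusted p = 0.0193). The call of BG842301, higher by 0.92 ± 0.24 (adjusted p = 0.0203), was lost with the range term (1.05 ± 0.26, adjusted p = 0.0576). The lower call was that of AI737443, at -1.30 ± 0.24 (adjusted p = 0.000716), and it too was lost with the range term (-0.94 ± 0.26, adjusted p = 0.126). Of the 11 transcripts without a listed zero, 7 were called without the range term. With it 3 were, namely AI920506, AW331485 and AW455651. AW017751 was called in neither fit, at 0.065 ± 0.22 (adjusted p = 0.903) and, with the range term, 0.21 ± 0.25 (adjusted p = 0.824). Hybrid channels beside any inbred line share slides with the values that chose the transcripts. These calls, also those without slides of 005x005, are therefore not independent of that choice. Only 10 hybrid channels with 005 and 12 without it lay on slides with no inbred line. Hybrids with and without 005 were also spread unevenly over the slide ranges, with 5 and 20 channels in the range from 916.

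Whether it matters which parent is named first was asked on the 5 slides that carry both reciprocal hybrids of 005, from differences between channels with a dye term. The labels do not say which name is the seed parent. No spot of 10829 was called by limma (lowest adjusted p = 0.774), and 691 (6.38%) had an unadjusted p under 0.05. Of the 200, 2 were higher (4.36% of all spots) and 9 lower (2.02% of all spots) with 005 named first at that unadjusted p. The median of the 200 was -0.16, with 29 above 0, and that of all spots was -0.02, with 46.3% above 0. Over all spots kept in the edge print blocks, which hold 188 of the 200, the median level was also taken by channel. With 005 named first and second it was 0.11 and 0.30 on slide 44 and -0.02 and 0.38 on slide 46. On slides 301, 471 and 919 it was -0.14 and 0.02, 0.16 and 0.23, and -0.34 and -0.63. Whether the shift was particular to the 200 was not tested. Without slide 471, 57 spots were called, none of them among the 200.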

How the data were processed

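Per the deposited notes, up to 6 scans were made for each labelled probe and 1 of them was used for normalization. The value table deposited by the authors holds log2 values; how these were normalized is not stated by the labels or notes. The scanner files deposited by the authors give spot intensity on a linear scale for every scan. Of their columns, 18 could not be tied to a labelled sample and were set aside. The transcripts and all lists were chosen with earlier results of these data known.

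Column medians were subtracted from the log2 values. Differences were tested with limma 3.58.1 in R 4.3.3 (lmFit, eBayes, Benjamini-Hochberg over 10829 spots, called at an adjusted p under 0.05), and the scripts were tested on simulated data. Both channels of a slide were averaged, with slide range as a block, or subtracted, with a dye term. For arrays, the number of samples limits the precision. As an alternative, scanner intensities were combined over scans, corrected with normexp (offset 50) and normalized with loess (span 0.3). Dyes were taken from the sample titles, which differ from the label field on some slides.

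Named transcripts are the 5 higher and 5 lower with the largest deviation, the 5 higher and 5 lower with the largest difference between hybrids in the direction of 005x005, those called, those matched to a gene and those at the limit of selection. Only 3 were lower. Those without a listed zero were added after their values had been seen. Other alternatives were the range block, slides left out or added, all hybrid channels, quantile normalization, dim spots, array weights and the dye term. The treatments of listed zeros and print blocks, these with a range term, and the within-slide contrasts were chosen after seeing the data.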

Additional observations from a re-analysis of the deposited data

Results flagged for a closer look

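Among 38 groups of 4 to 10 values examined, 3 held a value far from the others by Dixon's criterion, which chance alone meets in about 5% of groups. The median level of the 197 transcripts higher in 005x005 was -10.1 in the 002x250 channel of slide 297, against a group median of 0.01 (n = 8). It was -9.90 in the 002x301 channel of slide 561 (group median -0.50, n = 8) and -10.1 in the 250x002 channel of slide 292 (group median -0.37, n = 8). On these slides the value table lists exact zeros for most of the transcripts in both channels.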

How the results depend on the processing

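The count of spots called between hybrids with and without 005 was 0 on slides with 2 hybrids under every alternative run on those slides, each slide left out included (0 to 0). Over all hybrid channels it was 263, without slides of 005x005 236, with a slide range term 63, with listed zeros missing 409, with off-profile print blocks also missing 267, and with a range term added to that 24. The median difference of the 200 was 0.61, from 0.466 to 1.07 with 1 slide left out, and was 1.35, 1.43, 1.80, 0.38, 0.26 and 0.14 in those 6 fits in turn and 1.62 with scanner intensities. Over those of the 200 among the 5415 spots left without dim spots it was 1.36. The difference of AW400064 ran from -0.554 (without slide 295) to 0.0567 (without slide 61). The count for the order of 005 ran from 0 to 57 with 1 slide left out, 57 being without slide 471. The median deviation of the named transcripts, 2.08, became 0.524 in slide range 0, 3.95 in range 273, 0.653 with off-profile print blocks missing and 0.194 within slides. Reversed deviations were those of AW355987 (-0.0028 by medians, -0.259 in range 0, -0.161 off profile), AW787338 (-0.00193 in range 0), AI619370 (-0.0483 in range 0, -0.0164 within slides), AW400064 (0.0295 in range 916) and AW787311 (-0.120 off profile, -1.71 within slides). The cause was not tested. The groups share no replicate number, so no pairing by replicate was possible. Channels of 1 slide are paired, and the within-slide deviations and the order of 005 use those pairs. With 5 and 6 slides, the median 95% interval of a difference in the 200 was 0.96 to either side.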
